A study of Mus musculus with 6 samples.

Results

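The genes described here encode the translation initiation factors (Eif) and elongation factors (Eef) of the cytoplasm. They were taken as every probe set whose single gene symbol in the platform annotation begins with Eif or Eef followed by a digit, without Eif2s3x and Eif2s3y. This gave 64 probe sets of 12488 on the array, which read 47 genes. RNA came from mouse lung at embryonic stage E11.5, with 3 arrays for each of 2 dissected regions. The branching region held right and left lung, and main bronchi with a part of the trachea made up the non-branching region. No strain, genotype, treatment or sex is given in the labels, and nothing in them states whether the 3 samples of a region came from separate embryos, so the p-values reflect the scatter of the samples at hand, which could be technical alone. These are pieces of whole tissue with several cell types in each, and in them fewer cells of a type and less RNA per cell cannot be told apart.

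Protein synthesis starts when the small ribosomal subunit, carrying eIF1, eIF1A, eIF3, eIF5 and the initiator tRNA delivered by eIF2, is brought to the capped end of an mRNA by eIF4F. The eIF4F complex joins the cap-binding protein eIF4E, the scaffold eIF4G and the RNA helicase eIF4A, and eIF5B then joins the large subunit. The guanine nucleotide exchange factor eIF2B recharges eIF2 after each round, and the eIF2 kinases stop this step under stress. During elongation eEF1A brings each aminoacyl-tRNA to the ribosome, the eEF1B subunits recharge eEF1A, and eEF2 moves the ribosome along the mRNA.

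No translation factor gene differed between the regions past the threshold of a limma adjusted p under 0.05. Of the 47 genes, 44 had a probe set bright enough to be tested, and 0 of these 44 were called higher and 0 lower in branching. Over the whole array 158 of 6798 genes were called, which is 2.32% (1% higher and 1.32% lower). Of the 55 member probe sets tested 0 were called, beside 2.03% of all probe sets. The lowest adjusted p among the members was 0.178, for Eif1ax. At an unadjusted p under 0.05 there were 8 members, 4 higher and 4 lower, or 18.2% of the 44, beside 15.6% of all genes tested (7.16% higher and 8.43% lower).

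The differences were small, as they were for most genes on the array. Their median absolute size on the log2 scale was 0.23 over the 44 members and 0.26 over all 6798 genes. The arrays bounded many of the members' differences closely. A region was taken as above background where its mean signal exceeded 147, the level that 95% of the readings from bacterial and yeast spike controls stayed under. By this measure 39 of the 44 tested genes were above background in both regions, and 0 of the 39 were called, beside 2.7% of all such genes. Their log2 differences, branching minus non-branching, ran from -0.64 to 0.62. For 32 of these 39 genes the 95% interval of the difference lay within 2-fold in either direction, and for 19 it lay within 1.5-fold. The same counts were not made over all genes. The median log2 difference was 0.12 over the 44 members and -0.0083 over all 6798 genes. The mean was higher in branching for 28 of the 44 (63.6%), beside 49.0% of all genes tested. The medians of the members per array, as deviations from each gene's mean, were 0.018, -0.0012 and 0.105 on branching replicates 1 to 3 and -0.0005, -0.0353 and -0.0987 on the non-branching ones. Branching replicate 3 and non-branching replicate 3 lay farthest apart, and branching replicate 2 lay just below non-branching replicate 1, so the regions overlapped in this measure.

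In 15 of the 44 members the 3 branching arrays lay wholly above or wholly below the 3 non-branching arrays. This is 34.1% of them, beside 21.8% of all genes tested; 9 lay above (20.5%, beside 10.2%) and 6 below (13.6%, beside 11.7%). Among genes above background in both regions the shares were 14 of 39 members (35.9%) and 23.2% of all such genes. Those above were Eif1ax, Eif3j1, Eef1d, Eif6, Eif3d, Eif3a, Eif2b2, Eif2b4 and Eif3l, and those below were Eef2, Eef1a1, Eif3e, Eif4a2, Eif2a and Eif4h.

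**Figure D1:**
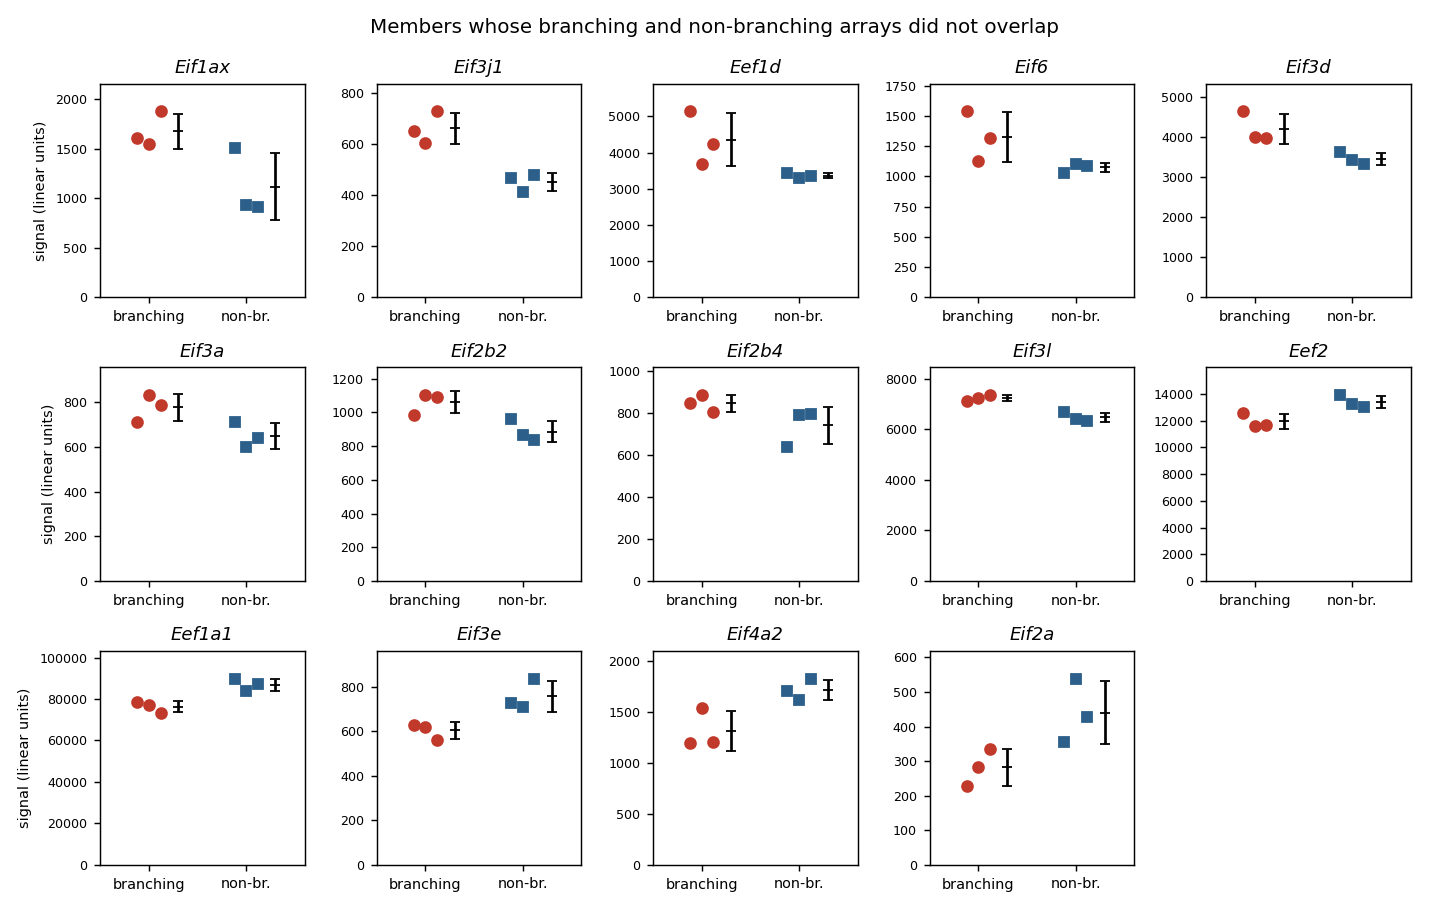
Signal of each array on a linear axis that starts at 0, for the 14 translation factor genes above background whose regions did not overlap (red circles branching, blue squares non-branching, replicates 1 to 3 from left to right; the black bar is the mean with the SD of 3 arrays). In some genes the gap between regions is narrow beside the signal itself. Eif3l reads 7116.5 to 7337.4 in branching and 6304.2 to 6669.4 in non-branching, and Eef2 reads 11603.1 to 12581.4 and 13057.9 to 13894.5. The gap is wider beside the signal in Eif3j1, which reads 605.5 to 728.5 in branching and 412.7 to 479.1 in non-branching.

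Promoter windows are shown for the helicase paralogs, whose values lay on opposite sides of 0, and for elongation factor and eIF3 genes whose regions did not overlap. RefSeq windows (GRCm38.p6), from 250 bases before to 50 after a gene's start, were matched by gene identifier for 39 of the 47 genes. Shown 5′ to 3′ on the gene's strand are 50 bases before and 20 after the start for the paralogs Eif4a1 (chr11:69672404-69672473, minus strand) and Eif4a2 (chr16:23107418-23107487, plus), for the elongation factors Eef1a1 (chr9:78481705-78481774, minus) and Eef2 (chr10:81176581-81176650, plus), and for the eIF3 subunits Eif3l (chr15:79075173-79075242, plus) and Eif3d (chr15:77970805-77970874, minus). Capitals mark an unbroken run of at least 6 pyrimidines that begins with C within 5 bases of the start, or the letters CACGTG, the E-box bound by Myc and its relatives.
Eif4a1: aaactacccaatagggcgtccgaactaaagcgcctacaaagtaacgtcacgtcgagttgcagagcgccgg
Eif4a2: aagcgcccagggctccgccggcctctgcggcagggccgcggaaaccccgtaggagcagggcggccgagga
Eef1a1: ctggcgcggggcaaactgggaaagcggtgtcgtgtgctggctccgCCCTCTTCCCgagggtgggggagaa
Eef2: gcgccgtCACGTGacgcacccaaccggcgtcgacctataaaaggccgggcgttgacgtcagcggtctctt
Eif3l: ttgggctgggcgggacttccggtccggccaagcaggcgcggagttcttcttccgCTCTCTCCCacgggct
Eif3d: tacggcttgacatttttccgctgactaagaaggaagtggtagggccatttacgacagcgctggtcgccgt

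A pyrimidine tract at the 5′ end of an mRNA is the mark of a class of transcripts, elongation factors among them, whose translation follows growth signalling. The run was found in 6 of 54 member windows (11.1%), beside 10.2% of the 32851 windows in the table. Eef1d and Eef1g had no window, and among the elongation factor genes that had one only Eef1a1 held the run. There it began 5 bases before the annotated start, and whether it lies at the 5′ end of the mRNA was not tested. The scan depends on the annotated start, and a tract that begins more than 5 bases from it is missed, so a window without the run may still belong to this class. CACGTG, which reads the same on both strands, was found in 12 of the 54 member windows (22.2%), beside 7.15% of all windows. Several member genes have more than 1 window, and the 12 windows belong to 10 genes, which are Eef2, Eef2k, Eif1b, Eif3a, Eif3f, Eif3k, Eif4a1, Eif4e, Eif4h and Eif5a. For Eif5a 2 of the windows overlap and hold the same site, which is therefore counted more than once. The share of genes with the letters was not counted over all genes. In Eef2 the letters begin 43 bases before the start and in Eif4a1 189 bases before it, outside the stretch shown. Of the 9 of these genes that were tested, 2 had the higher and 7 the lower mean in branching. Among the lower, Eif4e, Eif4h and Eif5a had means below background in both regions, and Eif3k differed by only -0.05 ± 0.09. The regions did not differ past the threshold for any of the 9 genes, so the letters describe the windows only.

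Among the factors that keep the small subunit ready for scanning, Eif1ax, one of the genes for eIF1A (Entrez gene 66235), was the member with the lowest p. Its signal was 1604.6, 1549.2 and 1876.8 on the branching arrays and 1509.1, 936.7 and 908.9 on the non-branching arrays. All branching values were higher, but non-branching replicate 1 came close to them. The log2 difference was 0.62 ± 0.20 (SE, n = 3 per region, limma adjusted p = 0.178). Without non-branching replicate 1 it was 0.86 and was called (adjusted p = 0.0351), and with 1 other array left out the adjusted p was up to 0.439, without non-branching replicate 3. A second probe set of Eif1ax read 405.7, 508.4 and 515.2 in branching and 494.8, 438.4 and 571.1 in non-branching, which overlap, with a difference of -0.07 ± 0.20 (adjusted p = 0.913). Its paralog Eif1a also had probe sets that differed in size, with 0.12 ± 0.15 on the brighter (adjusted p = 0.789) and 0.63 ± 0.28 on the other (adjusted p = 0.336). Whether the probe sets of such close paralogs read 1 gene each was not tested. Eif1b, an eIF1 gene, had the lower mean in branching (-0.21 ± 0.14, adjusted p = 0.568).

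Of the eIF2 group, Eif2a (Entrez gene 229317) encodes a separate initiator tRNA-binding protein rather than an eIF2 subunit. It read 227.2, 283.9 and 333.8 in branching and 355.5, 537.1 and 426.4 in non-branching. Every branching value was lower, with a narrow gap between 333.8 and 355.5, and the difference of -0.64 ± 0.26 did not pass (limma adjusted p = 0.297). Eif2s2, the beta subunit of eIF2, was read by 2 tested probe sets of opposite sign. On the brighter it had 220.7, 250.4 and 351.7 in branching against 300.7, 225.9 and 193.7 in non-branching (0.19 ± 0.31, adjusted p = 0.841). The other had a branching mean of 120 ± 59.2 (SD), below background, and a non-branching mean of 166 ± 28.7. Both probe sets overlapped between the regions. Eif2d, a factor of noncanonical initiation, differed by 0.11 ± 0.17 (adjusted p = 0.819).

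The 4 eIF2B subunit genes measured, Eif2b1, Eif2b2, Eif2b4 and Eif2b5, all had the higher mean in branching, and their differences were alike in size, from 0.14 to 0.26 with a median of 0.20. Eif2b2 (Entrez gene 217715), a regulatory subunit, read 986.4, 1100.9 and 1093.7 in branching and 958.8, 863.4 and 836.1 in non-branching. The regions did not overlap, although branching replicate 1 and non-branching replicate 1 were close, and the difference was 0.26 ± 0.13 (limma adjusted p = 0.423). The catalytic subunit Eif2b5 had 2 tested probe sets that gave 0.14 ± 0.16 and 0.18 ± 0.19. None of the 4 passed, and the upper ends of their 95% intervals lay between 0.51 and 0.56 on the log2 scale.

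None of the 3 eIF2 kinase genes tested passed. Eif2ak1, the heme-regulated kinase of red cell precursors, read 203.7, 169.1 and 528.5 in branching and 517.3, 261.8 and 288.3 in non-branching. Branching replicate 3 and non-branching replicate 1 were each far above the other 2 arrays of their region, and the difference of -0.37 ± 0.45 did not pass (limma adjusted p = 0.778). Eif2ak4, the kinase that senses uncharged tRNA, differed by 0.27 ± 0.40 (adjusted p = 0.821). Eif2ak2, the kinase activated by double-stranded RNA, had means of 158 ± 15.3 (SD) in branching and 131 ± 17.4 in non-branching, the second below background. Eif2ak3, the kinase of the endoplasmic reticulum, read 18.7 to 123.9 and was too dim to test. Of 9 red blood cell genes tested, 7 had the higher mean in branching, and 3 of them were called, the globins Hba-a1, Hba-x and Hbb-y. Higher without passing were Slc4a1 (0.88 ± 0.19, limma adjusted p = 0.0526), Alas2 (0.41 ± 0.39, adjusted p = 0.698), Gata1 (0.26 ± 0.72, adjusted p = 0.913) and Hbb-bh1 (0.12 ± 0.24, adjusted p = 0.864). The 2 with the lower mean were Klf1 and Epor (-0.48 ± 0.62, adjusted p = 0.787, and -0.90 ± 0.55, adjusted p = 0.510). The summed signal of the list, most of it from the 3 called globins, was 137260 to 152716 in branching and 88967 to 96422 in non-branching. Their part in the Eif2ak1 values was not tested.

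The scaffold complex eIF3, with 10 genes measured, showed 7 with the higher and 3 with the lower mean in branching and a median of 0.12. Eif3j1 (Entrez gene 78655), a loosely held subunit, read 651.4, 605.5 and 728.5 in branching and 466.6, 412.7 and 479.1 in non-branching. The lowest branching array was well above the highest non-branching one. Its difference of 0.55 ± 0.18 (limma adjusted p = 0.180) was the largest of the complex, and a near-identical copy of this gene, Eif3j2, exists in the mouse genome, so the signal may come from both. Eif3d, the cap-binding subunit, read 4633.6, 4002.0 and 3973.7 in branching and 3615.3, 3411.0 and 3327.1 in non-branching, without overlap (0.28 ± 0.10, adjusted p = 0.217). Eif3a, the largest core subunit (0.26 ± 0.16, adjusted p = 0.498), and Eif3l (0.16 ± 0.08, adjusted p = 0.374) also lay above without overlap. In the other direction Eif3e read 629.7, 620.6 and 561.6 in branching and 727.8, 706.7 and 833.4 in non-branching (-0.32 ± 0.16, adjusted p = 0.390). A dim probe set of Eif3e, below background in branching, also had its higher mean in non-branching (adjusted p = 0.366). The core subunits Eif3b (0.12 ± 0.13) and Eif3c (0.13 ± 0.09) and the subunits Eif3m (0.11 ± 0.15), Eif3k (-0.05 ± 0.09) and Eif3f (-0.15 ± 0.32) overlapped between the regions. For Eif3k and Eif3c the 95% intervals were narrow, from -0.25 to 0.15 and from -0.08 to 0.34, so a change of 1.5-fold lay outside both.

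The eIF4F group had the only negative median of a complex with more than 1 gene tested, -0.27 over 8 genes, of which 6 had the lower mean in branching. Within it the helicase paralogs differed in sign. Eif4a2 (Entrez gene 13682) read 1193.6, 1540.6 and 1204.0 in branching and 1709.4, 1625.4 and 1826.3 in non-branching, so every branching array was lower, by -0.40 ± 0.14 (limma adjusted p = 0.207). Eif4a1 (Entrez gene 13681), read by a less specific probe set, had 537.1, 1124.1 and 1036.4 in branching and 597.9, 522.9 and 651.2 in non-branching. Branching replicates 2 and 3 were high, while branching replicate 1 lay within the non-branching range, and the difference was 0.54 ± 0.27 (adjusted p = 0.405). Without branching replicate 1 the Eif4a1 difference was 0.88 (adjusted p = 0.0561). With 1 other array left out its adjusted p was up to 0.681, without branching replicate 3. Taken as a ratio within each array, Eif4a1 to Eif4a2 was 1.92 times as high in branching. The 3 branching ratios all exceeded the non-branching ones (two-sided exact permutation p = 0.1, the smallest that 3 against 3 arrays allow, and 0.2 adjusted over 6 paralog pairs).

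Eif4g2, which encodes a scaffold without the eIF4E-binding part, differed by 0.29 ± 0.23 (limma adjusted p = 0.619), and Eif4g3, a canonical eIF4G gene, by -0.28 ± 0.17 (adjusted p = 0.492). Their ratio was 1.49 times as high in branching without overlap, and the ratio of Eif1a to Eif1ax was 0.706 times as high, also without overlap (exact permutation p = 0.1 for each, 0.2 adjusted). Arrays overlapped for Eef1a1 against Eef1a2 (p = 0.4), Eif4e against Eif4e2 (exact permutation p = 0.9) and Eif4ebp1 against Eif4ebp2 (p = 0.7), each by the same exact permutation test. The direction of the Eif1a to Eif1ax ratio depended on the probe sets: it rests on the brightest of each gene, and the other probe sets gave 0.63 for Eif1a and -0.07 for Eif1ax. None of the 6 ratios passed, and a test of 3 against 3 arrays cannot.

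Of the remaining eIF4 factors, Eif4b, a helper of the helicase, differed by -0.09 ± 0.10 on its brightest probe set (limma adjusted p = 0.740), with 2886.6, 2682.2 and 2643.3 in branching and 2814.0, 2827.5 and 3108.8 in non-branching. A second probe set of Eif4b had the opposite sign (0.31 ± 0.23, adjusted p = 0.599). Both are less specific designs, and both overlapped between the regions. Eif4h, another helper of the helicase, read 49.4, 45.0 and 19.9 in branching and 125.6, 72.8 and 140.5 in non-branching. The branching values were lower, but all 6 lay below background, so no fold is given (adjusted p = 0.290). Eif4e, the cap-binding protein itself, had mean signals of 106 ± 56.0 (SD) and 128 ± 25.5, both below background. Eif4e2, a cap-binding paralog that represses translation, differed by -0.27 ± 0.20 (adjusted p = 0.606).

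The proteins that hold eIF4E away from eIF4G are the targets through which mTORC1 controls initiation. Eif4ebp1 read 243.1, 295.9 and 248.7 in branching and 186.6, 225.8 and 257.0 in non-branching, overlapping at the top of the non-branching range (0.24 ± 0.28, limma adjusted p = 0.764). Eif4ebp2 read 3497.6, 2760.8 and 3238.0 in branching and 2997.6, 2816.9 and 2890.2 in non-branching, which overlapped on branching replicate 2 (0.12 ± 0.11, adjusted p = 0.692). Its 2 dimmer probe sets gave 0.09 ± 0.50 and 0.32 ± 0.50. Eif4enif1, an eIF4E transport protein gene, had mean signals of 102 ± 72.2 (SD) and 76.1 ± 38.7, both below background.

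The factors of subunit joining, Eif5, Eif5b and Eif6, had a median of 0.29, with all 3 means higher in branching. Eif6 (Entrez gene 16418), which keeps the large subunit from joining too early and takes part in its assembly, read 1536.9, 1127.0 and 1318.1 in branching and 1031.4, 1105.4 and 1086.6 in non-branching. The regions did not overlap, but branching replicate 2 at 1127.0 was close to the highest non-branching array (0.29 ± 0.14, limma adjusted p = 0.390). Eif5b, the joining GTPase, read 420.4, 452.8 and 605.3 in branching and 368.8, 247.6 and 436.9 in non-branching on its brighter probe set (0.51 ± 0.27, adjusted p = 0.435). The other probe set of Eif5b had the opposite sign (-0.27 ± 0.43, adjusted p = 0.831), and both overlapped. Eif5, which stimulates GTP hydrolysis by eIF2, differed by 0.17 ± 0.18 (adjusted p = 0.733). Eif5a, the factor that carries the modified lysine hypusine, read 45.9, 68.5 and 55.8 in branching and 75.2, 221.2 and 38.5 in non-branching. Only non-branching replicate 2 exceeded background, so this probe set gave no usable comparison (adjusted p = 0.763).

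Both main elongation factor genes had the lower signal in branching. Eef1a1 (Entrez gene 13627), the main eEF1A gene, read 78695.5, 77024.8 and 73258.4 in branching and 89584.6, 83827.9 and 87198.7 in non-branching. Every branching array was lower, and the difference of -0.19 ± 0.08 on the log2 scale did not pass (limma adjusted p = 0.3004). Its probe set held rank 2 in brightness on each of the 6 arrays. Quantile normalization, which gives probe sets of equal rank equal values, therefore set this difference to 0 by construction. Eef2, the translocase gene, read 12581.4, 11603.1 and 11647.6 in branching and 13894.5, 13213.7 and 13057.9 in non-branching, again without overlap (-0.17 ± 0.08, adjusted p = 0.371). The lower ends of the 95% intervals were folds of 0.78 and 0.79, branching over non-branching.

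The exchange factor subunit Eef1d (Entrez gene 66656) had the higher signal in branching. It read 5134.2, 3695.1 and 4230.5 in branching and 3436.0, 3291.9 and 3353.7 in non-branching, so that all branching arrays were higher while varying more (SD 727 beside 72.3). The difference was 0.36 ± 0.12 (limma adjusted p = 0.209). Eef1b2, another exchange subunit, was read by a dim probe set of less specific design that overlapped between the regions (0.09 ± 0.50, adjusted p = 0.962). Eef1a2, the eEF1A gene of muscle and neurons, differed by 0.12 ± 0.23 (adjusted p = 0.867). Eef1akmt1, which the rule includes by its symbol, encodes a methyltransferase of eEF1A and no factor. It read 505.3, 468.1 and 494.7 in branching and 423.9, 685.7 and 414.2 in non-branching (-0.01 ± 0.23, adjusted p = 0.989). Eef1g read 2.6 to 49.2 and Eef2k, the kinase that inhibits eEF2, 37.5 to 60.3, and neither was tested.

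**Figure D2:**
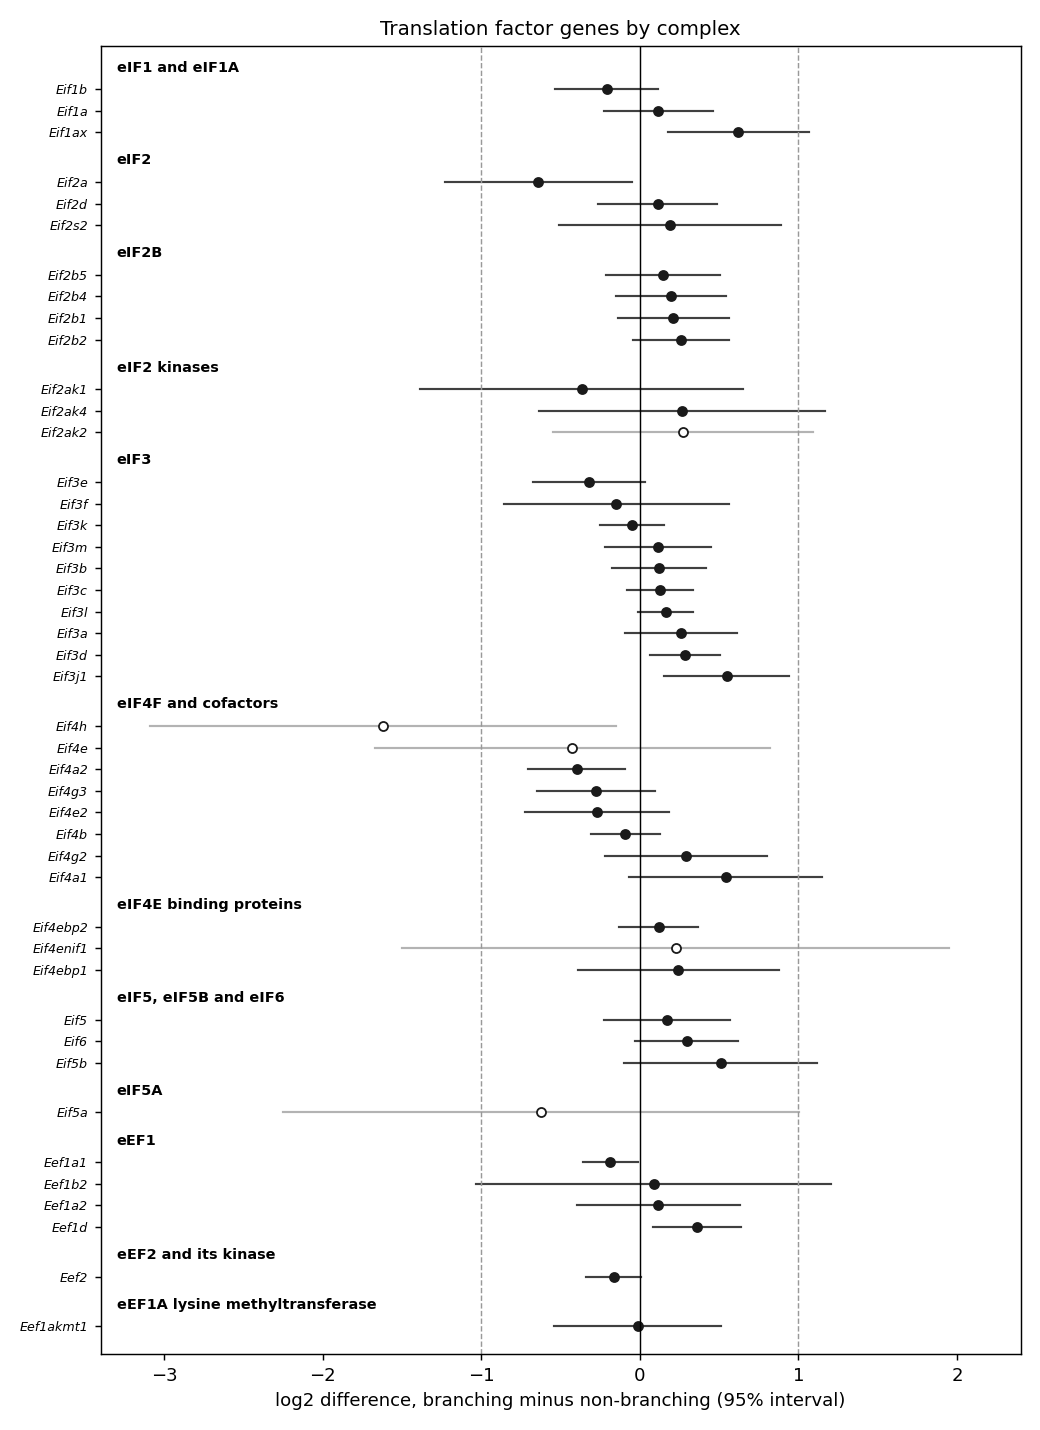
Log2 difference, branching minus non-branching, of each of the 44 tested translation factor genes with its 95% interval, grouped by complex (filled points: above background in both regions; open points: not; dashed lines: 2-fold). The points of eIF2B, of the eIF4E binding proteins and of eIF5, eIF5B and eIF6 all lie right of 0, and the eIF4F group spans both sides. The intervals are widest for Eif4enif1, Eif5a, Eif4h and Eif4e, whose means were below background in both regions.

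Where a gene had several tested probe sets, the sign depended on the probe set in 4 of 10 genes, Eif1ax, Eif2s2, Eif4b and Eif5b. The size was alike in Eif2b5 and differed in Eif1a and Eif3e. None of the probe sets was called, and the intervals of the probe sets of each gene overlapped.

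**Figure D3:**
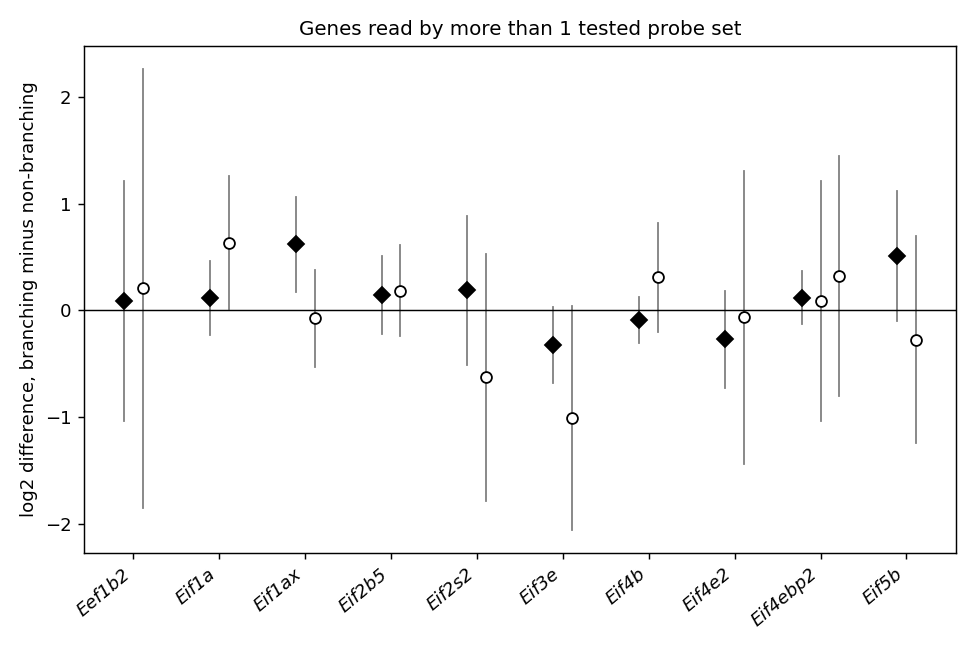
Log2 difference, branching minus non-branching, with its 95% interval for each probe set of the 10 translation factor genes read by more than 1 tested probe set (filled diamonds: the brightest, used for the gene; open circles: the others). The 2 Eif1ax probe sets give 0.62 and -0.07, and the intervals of the probe sets of every gene shown overlap.

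Other genes of protein synthesis were counted from lists of related function. Of 15 translation factors with other names 1 rose, 0 fell and 14 did not pass (median 0.24). The 1 that rose was Gspt1, the release factor eRF3, with 2240 ± 172 (SD) in non-branching and 3753 ± 600 in branching (0.73 ± 0.13, limma adjusted p = 0.0248). Its call was lost without any 1 array except branching replicate 2 (adjusted p up to 0.106, without branching replicate 3). Tpt1 and Pabpc1, whose mRNAs belong to the class with a pyrimidine tract at the 5′ end, were picked after their values were seen. They had -0.27 ± 0.07 (adjusted p = 0.114) and -0.07 ± 0.10 (adjusted p = 0.811). Of the 15 genes of this list, 10 had the higher and 5 the lower mean in branching. Of 4 mitochondrial translation factors none rose or fell. The 2 of them with the lowest p were Gfm1 (0.58 ± 0.44, adjusted p = 0.609) and Mtif2 (0.50 ± 0.45, adjusted p = 0.680).

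The cytoplasmic aminoacyl-tRNA synthetases and their scaffold proteins, which supply the charged tRNAs that eEF1A delivers, had a median of 0.44 over 21 genes, 20 of them with the higher mean in branching. Of the 21, 2 rose, 1 fell and 18 did not pass. Vars, the valine enzyme, rose by 0.64 ± 0.12 (limma adjusted p = 0.0247), from 1460 ± 96.4 (SD) to 2277 ± 207, and Tars, the threonine enzyme, by 0.78 ± 0.16 (adjusted p = 0.0412), from 526 ± 32.5 to 905 ± 92.9. Qars, the glutamine enzyme, fell by 0.48 ± 0.09 (adjusted p = 0.0277), from 3378 ± 57.8 to 2427 ± 56.8. These calls rested on the full set of arrays: Tars and Qars lost theirs without any 1 of the 6 arrays (adjusted p up to 0.144 for Tars, on leaving out branching replicate 3, and up to 0.139 for Qars, on leaving out non-branching replicate 3). Vars kept its call only without non-branching replicate 1 (adjusted p up to 0.118, without non-branching replicate 3).

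Among 11 genes of mTORC1 and MNK signalling, which acts on eIF4E and its binding proteins, 2 fell, 0 rose and 9 did not pass (median -0.13). Both that fell encode inhibitors of mTORC1. Ddit4 had 1117 ± 124 (SD) in non-branching and 548 ± 63.6 in branching (-1.03 ± 0.16, limma adjusted p = 0.0141), and Sesn1 had 729 ± 83.3 and 385 ± 13.3 (-0.92 ± 0.18, adjusted p = 0.0335). Ddit4 lost its call without non-branching replicate 1 (adjusted p = 0.0549) or 3 (adjusted p = 0.0619). Sesn1 passed in 0 of the 6 omissions (adjusted p up to 0.149, without non-branching replicate 3). Of 14 genes of the stress response that runs through the eIF2 kinases and Atf4, with Atf4 itself among them, 1 rose, 0 fell and 13 did not pass (median 0.09). Psat1, an enzyme of serine synthesis, rose from 1100 ± 131 to 2341 ± 195 (1.09 ± 0.13, adjusted p = 0.00358) and passed whichever array was left out. With a single variance prior for all signal levels, none of the 7 called genes named from these lists passed, and the lowest adjusted p was 0.0905, for Psat1.

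All 19 cell cycle genes tested had the higher mean in branching (2 rose, median 0.42), with a summed signal of 43807 to 47929 in branching and 34812 to 35769 in non-branching. Red blood cell genes had a median of 0.41, with 3 of 9 called higher. Genes called lower in branching were found among smooth muscle (5 of 9, median -0.72, summed signal 6033 to 6729 against 11416 to 13129), cartilage (3 of 7, median -0.78), cardiac and skeletal muscle (3 of 10, median -0.48) and endothelial genes (1 of 9, median -0.37). Neuronal and neural crest genes had 1 of 6 called lower (median -0.03). None was called of 11 epithelial genes (median 0.06), 5 leukocyte genes (median 0.22) and 4 genes of thyroid, thymus, liver and gut (median 0.33). The epithelial genes tested were each above background on at least 1 array, with 7 means higher and 4 lower in branching. Without overlap of the regions, but without passing, the lung marker Sftpc (1.99 ± 0.49, limma adjusted p = 0.0807) and Cldn6 (0.62 ± 0.14, adjusted p = 0.0647) were higher. Foxa2 (-0.62 ± 0.15, adjusted p = 0.0751) and Sox2 (-1.28 ± 0.33, adjusted p = 0.0995) were lower in the same way. The part of these cell types in the values of the translation factors was not tested.

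**Figure D4:**
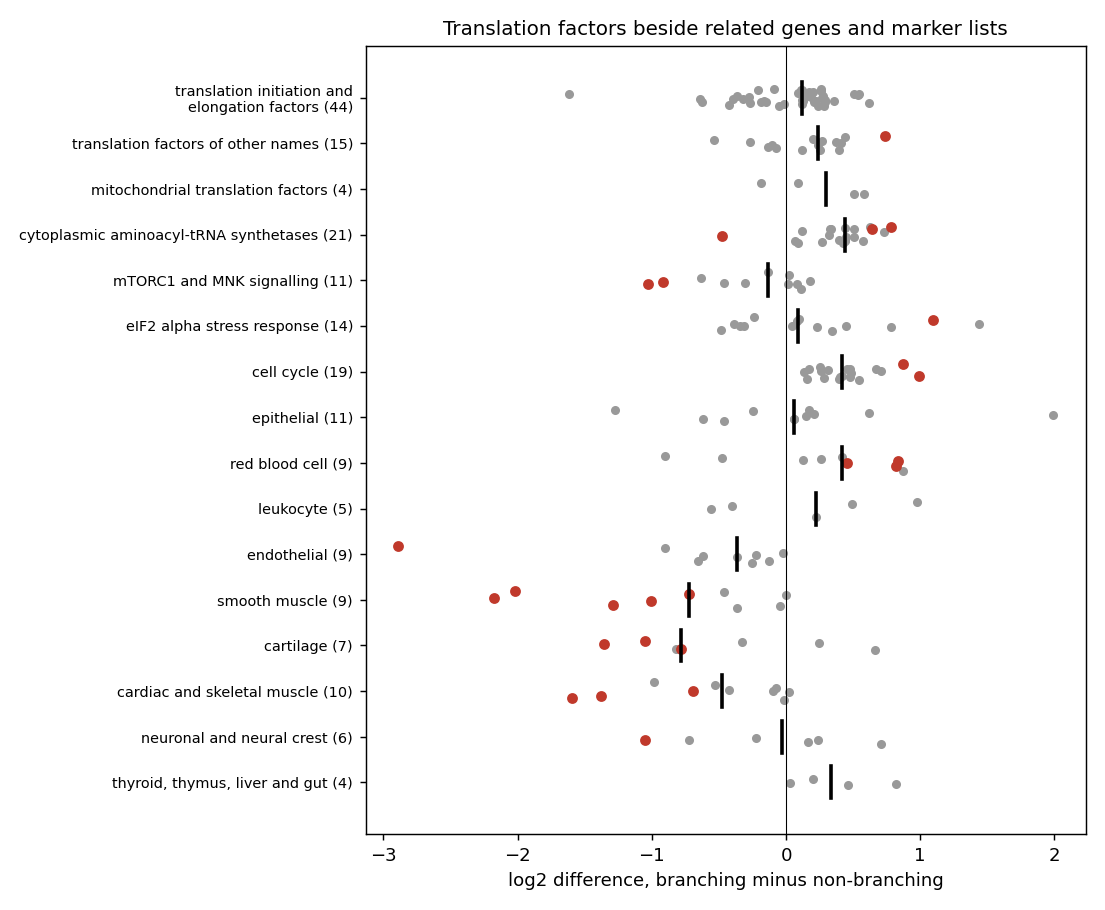
Log2 difference, branching minus non-branching, of each tested gene in the translation factor set, in related lists and in marker lists, with the number of genes in brackets (red: limma adjusted p under 0.05; grey: not; black bar: median; vertical jitter only separates points). The 44 translation factors hold no red point around a median of 0.12, beside medians of 0.44 for the synthetases, 0.42 for the cell cycle genes and -0.72 for smooth muscle.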

How the data were processed

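Deposited values were array intensities on a linear scale, 1 column per sample, and the authors' steps behind these intensity values are not given in the sources used here. Trimmed by 2% at either end, every array averaged 500.3, and array medians were 212 to 229, so a common scaling was already present and was left as it was. With 3 arrays per region, array number sets the precision. The 66 control probe sets were left out, values below 16 were raised to 16, log2 was taken, and the dimmest 25% by mean were dropped. The other 9316 were fitted with limma 3.58.1 in R 4.3.3 (2 groups, eBayes with a variance trend, two-sided), with Benjamini-Hochberg adjustment over all 9316. Intervals are from the moderated fit. Tested on simulated data, the fit missed most of the 2-fold changes put in, so a gene that was not called may still differ. Those changes were put into probe sets drawn from all that were kept, dim ones among them. The share missed among the members alone was not measured. A gene was represented by its brightest probe set, and a probe set name with a letter before its last part marks a less specific design. Gene symbols are those of the platform annotation, and RefSeq changed 0 of the member symbols. Values per array are given for the members with the largest difference or lowest p in each complex, for those with probe sets of opposite sign, and for some others without overlap. From the lists of related function, called genes or the 2 with the lowest p are named, and Tpt1 and Pabpc1 in addition. The members and lists were chosen with earlier results of these data known. Eef1akmt1 was placed in a group of its own after the annotation was seen. The exact permutation tests of paralog ratios were added after the data were seen, where a description with no test had been planned.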

Additional observations from a re-analysis of the deposited data

How the results depend on the processing

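The count of translation factor genes called higher in branching was 0 in 16 of 17 alternatives (array omissions 0 to 1, the 1 being Eif1ax), and that called lower was 0 in all 17; probe set counts behaved alike (0 to 1 higher). The alternatives were quantile and median scaling, other floors and filters, no variance trend, array weights, an adjusted p under 0.10, other choices of probe set, a replicate block and 6 omissions. The median of the members stayed between 0.08 and 0.16. Complex medians moved by more than the array spread as follows. For eEF1 (0.10) the median was 0.0601 with array weights, 0.14 with median centring, 0.14 with quantile normalization and 0.16 without less specific probe sets, and -0.0538 to 0.19 with 1 array left out. For eIF3 it was 0.16 with median centring and 0.0853 with quantile normalization, and for the eIF2 kinases -0.37 with the dimmest 50% left out, where 1 gene remained. With the mean of a gene's probe sets it was 0.27 for eIF1 and eIF1A, -0.22 for eIF2 and 0.17 for eIF5, eIF5B and eIF6. With 1 array left out the medians ran from 0.0437 to 0.26 for the eIF4E binding proteins, 0.26 to 0.41 for eIF5, eIF5B and eIF6, and -0.33 to -0.15 for eIF4F. Omitting single arrays turned the sign of Eef1b2 (-0.37 to 0.51), Eef1akmt1 (-0.14 to 0.22), Eif4enif1 (-0.33 to 0.95), Eif4e (-0.79 to 0.10), Eef1a2 (-0.0364 to 0.30), Eif2s2 (-0.0061 to 0.36) and Eif3f (-0.51 to 0.0860). Signs also turned for Eef1b2 (-0.0866) and Eef1akmt1 (0.0074) with array weights, Eef1akmt1 with median centring (0.0231), and Eif2s2 (-0.22) and Eif4b (0.11) with the mean of the probe sets. The cause was not tested. Deviations of arrays of equal number had correlations of -0.015 to 0.013, and those of unequal number -0.0486 to 0.0517. Correlations this near 0 cannot decide whether the numbers pair the samples, which the labels do not state. With a replicate block the median of the members was 0.12 and 0 members were called, while 44 probe sets on the whole array were called higher and 70 lower, beside 84 and 105, and among the related genes Vars, Tars, Qars, Ddit4 and Sesn1 lost their calls (adjusted p 0.057 to 0.0973). Without a variance trend these counts were 5 and 17, and 38 and 62 with dim probe sets kept, where Gspt1 (adjusted p = 0.0869), Vars (0.0557), Tars (0.0602) and Sesn1 (0.0520) lost their calls, as Qars did with median centring (0.0595). Omitting 1 array gave as few as 16 and 56 (branching replicate 3) or 23 and 38 (non-branching replicate 3).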
